A study of Mus musculus with 6 samples.

Results

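The Cd300 genes encode cell-surface receptors with an immunoglobulin-like outer domain. They were described here by the open chromatin around 7 of them (Cd300a, Cd300c, Cd300e, Cd300lb, Cd300ld, Cd300lf and Cd300lg), all on mouse chromosome 11, out of 21887 protein-coding genes. For each gene, the peaks that overlapped its body or the 10 kb on either side were taken from every library. The data came from ATAC-seq, which marks accessible DNA by inserting sequencing adapters with the Tn5 transposase, on blood monocytes. The DTR libraries (n = 3) came from thrombocytopenic mice of the PF4cre-iDTR genotype given diphtheria toxin, and the WT libraries (n = 3) from wild-type mice given the same toxin. In PF4cre-iDTR mice, Cre driven by the promoter of the platelet chemokine gene Pf4 turns on the toxin receptor, so the toxin kills cells with that Cre activity, above all megakaryocytes. Every group thus received toxin, and genotype was the labelled difference. The labels state neither the age and sex of the mice, nor the toxin schedule, nor whether a library stands for 1 animal. All p-values therefore measure the spread between these libraries, which may be partly technical.

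Receptors of this family bind lipids on dying cells and other ligands, and they raise or restrain the activity of myeloid cells. Cd300a and Cd300lf carry inhibitory tyrosine motifs that recruit phosphatases such as Ptpn6. Cd300lb and Cd300ld have short tails and signal through adaptors with activating motifs, Tyrobp for Cd300lb and Fcer1g for Cd300ld. In humans, CD300C and CD300E are activating receptors of monocytes. Cd300lg, also called nepmucin, is known as an adhesion molecule of endothelial cells.

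At their annotated starts, Cd300ld and the further genes Cd300ld3, Cd300ld4 and Cd300ld5 have alike sequences but different peak calls. Below are the 250 bases before each start, 5′ to 3′ on the gene's strand, from RefSeq (GRCm38.p6). They are shown because Cd300ld and Cd300ld3 had a peak there in 6 of 6 libraries and Cd300ld4 and Cd300ld5 in 0 of 6. Cd300lf is added as an inhibitory member with a peak at its start in 6 of 6 libraries. Capitals mark the letters AGGAAG of the ETS core, or GAGGAAGT, a form of the PU.1 motif that contains it, on either strand.
Cd300ld (chr11:114989887-114990136, minus strand): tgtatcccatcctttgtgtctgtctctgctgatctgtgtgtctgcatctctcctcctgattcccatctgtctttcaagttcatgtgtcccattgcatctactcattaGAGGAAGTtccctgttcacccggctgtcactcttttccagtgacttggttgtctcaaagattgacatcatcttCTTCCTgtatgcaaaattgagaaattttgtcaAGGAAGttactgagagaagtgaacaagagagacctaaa
Cd300ld3 (chr11:115048331-115048580, minus strand): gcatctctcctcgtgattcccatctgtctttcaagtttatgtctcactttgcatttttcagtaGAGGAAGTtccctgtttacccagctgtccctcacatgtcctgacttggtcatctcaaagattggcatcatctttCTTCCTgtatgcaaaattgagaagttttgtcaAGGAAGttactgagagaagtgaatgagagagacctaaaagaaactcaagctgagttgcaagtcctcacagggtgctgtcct
Cd300ld4 (chr11:115026934-115027183, minus strand): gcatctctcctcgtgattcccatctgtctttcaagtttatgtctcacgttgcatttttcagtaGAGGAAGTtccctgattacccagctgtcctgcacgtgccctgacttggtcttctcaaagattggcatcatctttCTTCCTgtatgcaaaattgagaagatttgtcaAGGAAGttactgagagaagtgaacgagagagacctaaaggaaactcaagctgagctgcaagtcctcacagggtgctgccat
Cd300lf (chr11:115133993-115134242, minus strand): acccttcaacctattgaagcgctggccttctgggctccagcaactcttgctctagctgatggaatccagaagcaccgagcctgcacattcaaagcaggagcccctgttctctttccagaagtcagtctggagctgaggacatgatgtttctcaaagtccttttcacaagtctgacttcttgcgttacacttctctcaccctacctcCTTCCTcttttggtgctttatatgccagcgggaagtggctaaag

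The bases of Cd300ld5 were identical to those of Cd300ld4 over all 250 positions. Cd300ld3 shared 94.8% with Cd300ld4, and the aligned stretch of Cd300ld shared 86.7% with it. A sequence form of PU.1 (GAGGAAGT, either strand) stood in the 250 bases of all 4 of these genes, against 2.44% of 32851 promoters in the table, and in no other member with an entry. It overlaps an ETS core by construction. The shorter ETS core AGGAAG stood in all 6 members with an entry (Cd300lg has none), against 29.5% of all promoters. Cd300a held a C/EBP match (TTGCNNAA, 9.56% of all promoters), and Cd300c held a RUNX match (TGTGGT, 14.0%) and an IRF match, found as GAAACAGAAA (2.98% of promoters held the motif). No member held the AP-1 letters TGANTCA or the E-box CACGTG in this window. Of the further genes shown or named above, Cd300ld4 and Cd300ld5 held the E-box (−156 to −151; 6.02% of all promoters) and Cd300ld3 did not. A match describes letters, not binding.

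A peak lies over the start of each of the 6 members with an entry, in every library. At Cd300a the peak had a fold enrichment, the authors' ratio over the peak caller's background, of 7.57, 7.26 and 7.56 in the DTR libraries and 7.35, 6.94 and 7.58 in the WT libraries. At Cd300ld, DTR libraries had 7.62, 6.96 and 7.21, against 6.97, 6.69 and 6.85 for WT libraries. The groups overlapped at both starts. At Cd300lf the folds were 6.80, 6.93 and 6.53 in DTR and 6.63, 6.96 and 7.78 in WT, and at Cd300c 7.09, 6.74 and 7.87 against 6.65, 6.25 and 7.35. Cd300lb was lower, with 4.31, 3.82 and 4.04 in DTR and 4.03, 4.35 and 4.41 in WT. These 3 starts also showed overlap between the groups.

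The start of Cd300e had a weak peak: its folds were 1.90, 1.79 and 1.81 in DTR and 1.64, 1.78 and 1.77 in WT libraries. Every DTR library lay above every WT library there (mean 1.83 ± 0.0574 in DTR and 1.73 ± 0.0758 in WT, SD, n = 3 each; exact two-sided permutation p = 0.1). That is the lowest p that 3 libraries against 3 can reach in this test, and the difference of 0.105 was 0.0612 without WT library 1. Divided by the median fold of each list, the folds overlapped between the groups (exact permutation p = 0.3). Of all regions with a peak in 6 libraries, 10.4% had every DTR fold above every WT fold. The Cd300e start used here is that of its promoter entry and lies inside the annotated gene body. A stronger region of Cd300e was centred at −4728 bp from that start. It lies over the outer 5′ end of the gene body, on the minus strand (chromosome 11, 115066211 to 115067324). Its folds were 6.81, 6.16 and 6.55 in DTR and 6.05, 6.14 and 6.34 in WT libraries, so the groups overlapped.

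No peak was listed at the starts of Cd300ld4 and Cd300ld5 in any library. Both lie in a stretch of 37.5 kb without a peak (115010663 to 115048210), the longest such stretch of the cluster. Across the genome, 460 promoters have the same 250 bases at more than 1 place, and 0 of them had a peak in any library. Of the 32357 promoters found at 1 place only, 41.6% had a peak in all 6 libraries and 55.2% in none. The sources used here do not say how reads that match several places were handled. A closed start and reads that could not be placed cannot be told apart at these genes. Cd300c2, another gene of the cluster, had folds of 5.62, 5.53 and 5.39 in DTR and 5.69, 5.61 and 5.67 in WT libraries at its start.

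**Figure D1:**
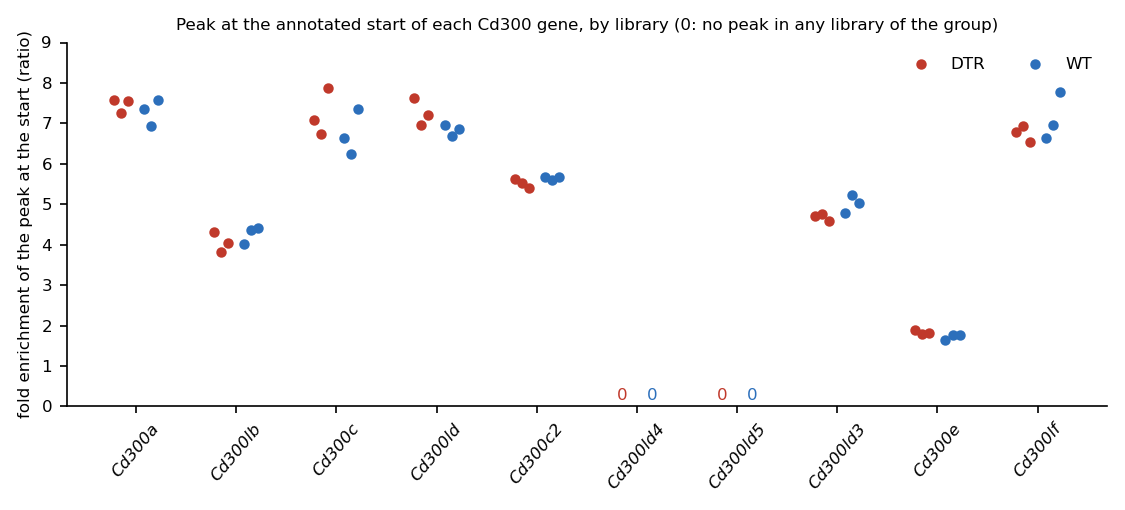
Fold enrichment (vertical axis, ratio) of the peak over the annotated start of each Cd300 gene with an entry, in the order of the genes on the chromosome. Each point is a library, DTR in red and WT in blue, and 0 marks starts without a peak (Cd300ld4 and Cd300ld5). Cd300e is the lowest of the starts with a peak, between 1.64 and 1.90, and its start used here lies inside the annotated gene body.

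Checks on the whole series bear on how the values are read. The 6 lists held 77867 to 84029 peaks, and every DTR list was longer than every WT list. They hold no read counts, so depth is unknown. Promoter windows on chromosome 11 had a peak in all libraries for 51.0% of 2289 entries, against 4.37% to 6.03% when moved by 5 or 20 kb, so the gene table and the peaks are in register. Of the fixed monocyte markers, 6 of 6 with a promoter entry (Ccr2, Cx3cr1, Ly6c2, Fcgr1, Itgam and Lyz2) had a peak there in every library. The same held for 0 of 3 B cell, 1 of 6 T and NK cell, 0 of 4 erythroid, 1 of 6 megakaryocyte, 0 of 4 mast cell and basophil and 3 of 6 neutrophil markers. The summed covered length of the 10 monocyte windows was 47516 to 49636 bp in DTR and 44152 to 46174 bp in WT libraries. For the 7 megakaryocyte windows the summed highest fold was 51.2 to 52.7 in DTR and 48.3 to 49.8 in WT libraries. Summed values also did not overlap for monocyte peak number (68 to 70 in DTR and 64 to 66 in WT), erythroid covered length (11378 to 11721 bp in DTR and 10711 to 11344 bp in WT) and mast cell and basophil highest fold (15.7 to 17.8 in DTR and 13.1 to 14.2 in WT). The whole lists did not overlap in covered length either, with 48.1 to 50.1 Mb in DTR and 43.8 to 47.7 Mb in WT libraries. Of all genes, 2.3% had every DTR library above every WT library in peak number and 14.8% in covered length. For highest fold it was 7.99% of genes with a peak in every library. Whether the marker sums go beyond the whole series was not tested. The part of these shifts in the results on Cd300 genes was not tested.

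The members other than Cd300lg form a cluster with the further Cd300 genes and Rab37, which encodes a small GTPase of vesicle transport. Over 266 kb this cluster held 52 merged regions (peaks of all libraries joined where they overlap), 45 of them with a peak in all 6 libraries. Cd300lg lies apart from the cluster. The windows of the members did not overlap each other. The window of Cd300lf overlaps Rab37, that of Cd300e takes in the whole of Cd300ld3, and that of Cd300lg takes in part of Mpp2, a scaffold protein gene. Peaks there cannot be assigned to 1 gene. The window of Cd300ld also reaches into Cd300c2, without a peak in the shared part.

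**Figure D2:**
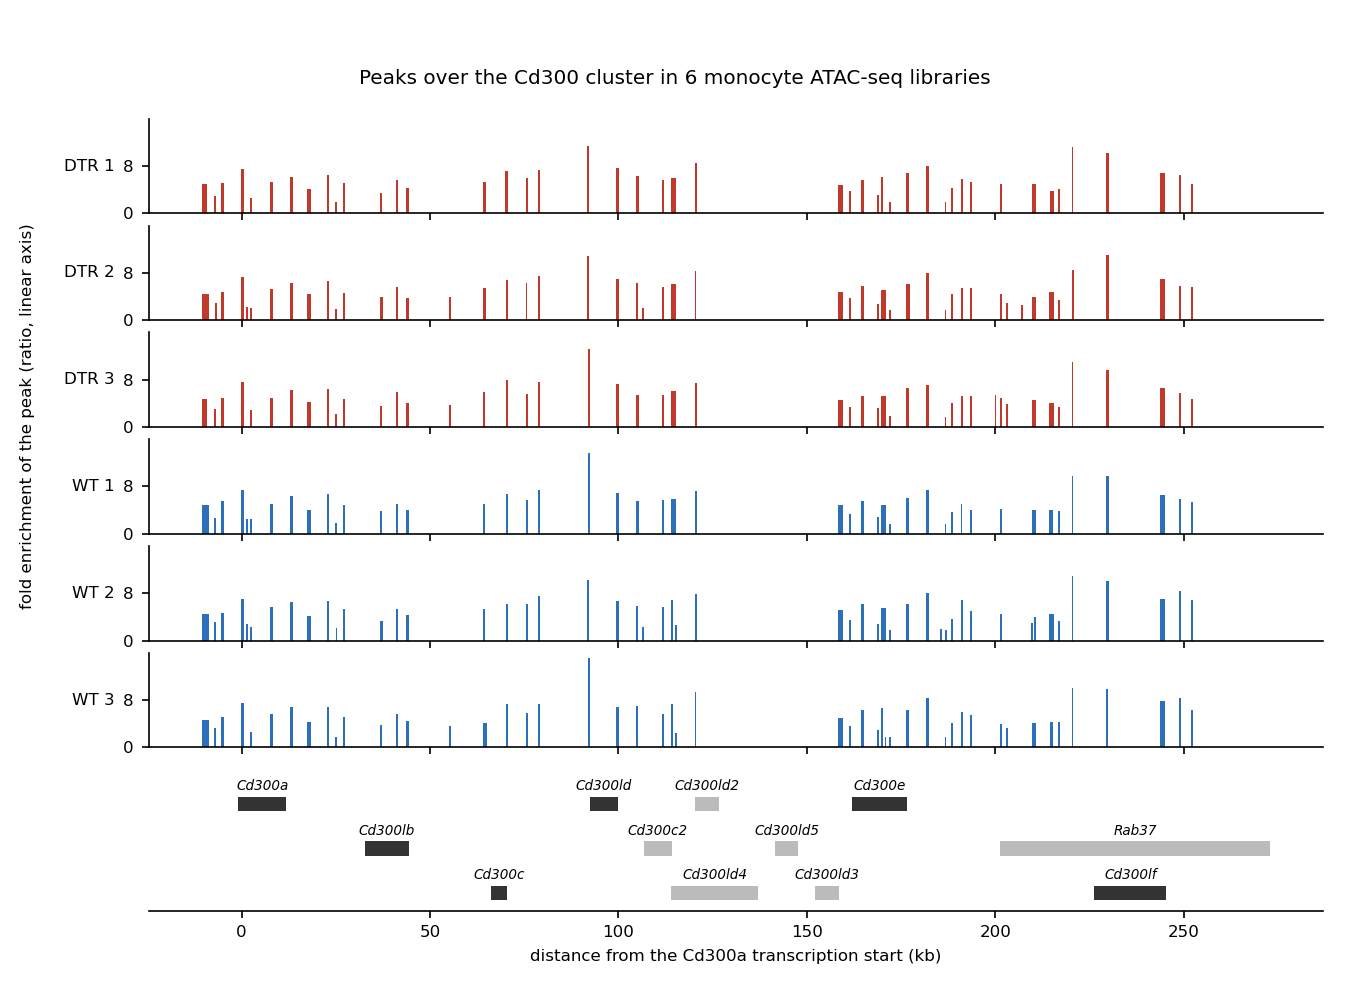
Peaks of each library over the Cd300 cluster; the horizontal axis is the distance from the Cd300a start in kb and bar height is the fold enrichment (ratio). Bars are drawn at least 0.5 kb wide, DTR libraries stand above WT libraries, and members are dark and other genes grey. The same sites recur in all 6 libraries, and the stretch of 37.5 kb without peaks holds Cd300ld5 whole and parts of Cd300ld4, Cd300ld2 and Cd300ld3.

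Over the 7 windows as a whole, peak number and covered length were close between the groups. Of all genes, 63.4% had the higher mean covered length in DTR and 13.5% the lower. Of the 7 members, 5 had the higher mean in DTR and 2 the lower. Whether the family departs from all genes was not tested. The DTR libraries had 39, 41 and 39 peaks and the WT libraries 39, 42 and 40 (DTR minus WT −0.667; exact permutation p = 0.7). The bases under a peak came to 24404, 26696 and 24683 in DTR and 26222, 24964 and 24592 in WT libraries. Their means were 25261 ± 1251 bp in DTR and 25259 ± 854 bp in WT (SD, n = 3 each; exact permutation p = 1). The median peak width was 589, 587 and 571 bp in DTR and 608, 551.5 and 524.5 bp in WT libraries (difference 21.0 bp; exact permutation p = 0.5). The median fold was 6.03, 5.62 and 5.62 in DTR and 5.47, 5.72 and 5.88 in WT libraries (difference 0.0630; exact permutation p = 0.7). The groups overlapped in all 4 measures. Leaving out DTR library 2 gave a covered length difference of −716 bp, so the sign of that difference rests on single libraries.

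Overlap between libraries over these windows was as high across the groups as within them. The base-pair Jaccard index (shared over joint length) averaged 0.859 within DTR, 0.868 within WT and 0.867 between groups, over 3, 3 and 9 pairs. Of 29625 bases under a peak in any library, 73.2% were under a peak in all 6.

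Cd300a, an inhibitory receptor, had the most covered window. The bases under a peak numbered 6018, 7272 and 6054 in DTR and 6900, 6873 and 6580 in WT libraries, in 8 or 9 peaks. Averaged over libraries, 20.2% of its window was covered, more than in 99.5% of all genes, for which the median was 3.66%. Cd300e followed with 17.2% (more than in 98.6% of genes), in 8 peaks in each DTR library and 8, 9 and 9 in WT libraries. Its covered length was 5386, 6280 and 6301 bp in DTR and 6229, 6152 and 5580 bp in WT libraries. In both genes the groups overlapped.

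Cd300lb, Cd300c and Cd300ld had fewer peaks than Cd300a and Cd300e in every library. Cd300lb had 6 peaks in every library, with 3089, 3294 and 3144 covered bp in DTR and 3142, 3189 and 3033 bp in WT libraries. Cd300c had 4 peaks in every library, with 2610, 2388 and 1857 bp in DTR and 1885, 1860 and 2485 bp in WT libraries. Cd300ld had 3, 4 and 3 peaks in DTR and in WT libraries, covering 2055, 2171 and 2042 bp in DTR and 1992, 2218 and 1835 bp in WT. None of these 3 genes separated the groups in peak number or covered length in these windows of 10 kb. Among Cd300c, Cd300ld and Cd300lg the covered lengths overlapped, so their order is not set by these data.

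With windows of 10 kb, Cd300lf was the only member whose covered length separated the groups. Windows of 25 kb separated them at both Cd300lf and Cd300ld (Cd300ld difference 541 bp, exact permutation p = 0.1). With 10 kb Cd300lf had 3361, 3367 and 3379 bp under a peak in DTR and 3302, 2954 and 2988 bp in WT libraries, in 6 peaks in each library. The mean was 3369 ± 9.17 bp in DTR and 3081 ± 192 bp in WT (SD, n = 3 each; exact permutation p = 0.1, adjusted p = 0.646 over all genes). WT library 1 lay close to the DTR libraries and the other WT libraries lay lower. The difference of 288 bp was 27.7 bp over the gene body alone (exact permutation p = 0.5), 146 bp with 5 kb (exact permutation p = 0.2) and 822 bp with 25 kb (exact permutation p = 0.1). In the first and second of these windows the groups overlapped. Of all 21887 genes, 14.8% had every DTR library above every WT library in covered length and 0.653% the reverse, so 1 member of 7 is near that background. The median difference over the 7 members was 54.3 bp, against 55.0 bp over all genes, neither scaled to covered length. By limma on log2 covered length, Cd300lf differed by 0.13 ± 0.055 (SE; adjusted p = 0.422 over 16247 genes), beside a median of 0.07 over all genes tested. That fit called 2 genes higher (0.0123%) and 1 gene lower (0.00615%) in DTR, and 0 of the 7 members.

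In the upstream flank of Cd300lf, which overlaps Rab37, peaks were narrower in WT libraries 2 and 3. At 115138848 to 115139337, centred at −5100 bp from the start, the peak was 436, 490 and 485 bp wide in DTR and 435, 312 and 309 bp in WT libraries (difference 118 bp; exact permutation p = 0.1; 13.0% of all regions in 6 libraries had each DTR width above each WT width). The folds there were 6.44, 5.85 and 5.80 in DTR and 5.91, 8.41 and 8.43 in WT, so the narrower peaks of WT libraries 2 and 3 had the higher folds. A neighbouring region (115141933 to 115142462) was 497, 362 and 462 bp wide in DTR and 457, 301 and 312 bp in WT libraries, with overlapping folds. Rab37 itself had 15, 16 and 16 peaks in its window in DTR and 14, 13 and 14 in WT libraries, which did not overlap (exact permutation p = 0.1). For peak number, 2.3% of all genes had every DTR library above every WT library and 0.265% the reverse, and 0 of the 7 members did either with 10 kb. In windows of 25 kb, Cd300lf peak number was above (means 12 in DTR and 11 in WT, exact permutation p = 0.1).

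A pair of strong regions marks Cd300lf away from its start. Inside the gene body, 14270 bp downstream of the start, the region at 115119387 to 115120058 had folds of 10.3, 11.1 and 9.61 in DTR and 9.72, 10.1 and 9.86 in WT libraries. Those values lay above 91.4% to 96.3% of the peaks of their own lists. Past the gene's end, the region at 115110369 to 115110729 had folds of 11.2, 8.46 and 11.1 in DTR and 9.70, 10.97 and 10.05 in WT libraries. Its peaks were 215, 361 and 215 bp wide in DTR and 211, 209 and 210 bp in WT libraries, which did not overlap (exact permutation p = 0.1). That width difference of 53.7 bp was 5 bp without DTR library 2. Of all regions in 6 libraries, 13.0% had each DTR width above each WT width. In fold, the groups overlapped at both regions. The highest fold in the window was nevertheless above WT in each DTR library (11.2, 11.1 and 11.1 in DTR, against 9.72, 10.97 and 10.05 in WT; exact permutation p = 0.1, adjusted p = 0.785 over 16247 genes). It came from different regions in different libraries. Over the gene body alone or with 5 kb, the difference of 0.882 was 0.421 and the groups overlapped (exact permutation p = 0.5 for either).

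For the highest fold, 7.99% of genes with a peak in every library had each DTR library above each WT library, and 4.75% had each below. Cd300lf was the member above and Cd300lb the member below with 10 kb. Over the gene body alone, Cd300lg was the only member that separated the groups (means 8.87 in DTR and 8.02 in WT, exact permutation p = 0.1). In Cd300lb the highest fold was 6.53, 6.59 and 6.43 in DTR and 6.66, 6.69 and 6.76 in WT libraries (means 6.52 ± 0.0766 and 6.70 ± 0.0492 for DTR and WT, SD, n = 3 each; exact permutation p = 0.1, adjusted p = 0.785). It came from a region at the edge of the window, 21369 bp downstream of the Cd300lb start and between that gene and Cd300a (114912772 to 114913233). Without extension or with 5 kb, which leave that region out, the difference was 0.336 and the groups overlapped (exact permutation p = 0.2 for either). By limma on the log2 highest fold, 0 of 16247 genes (0% in either direction) passed an adjusted p of 0.05, while 1370 had an unadjusted p below it. The median difference over the members was 0.0942, against 0.0137 over all genes with a peak in every library.

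**Figure D3:**
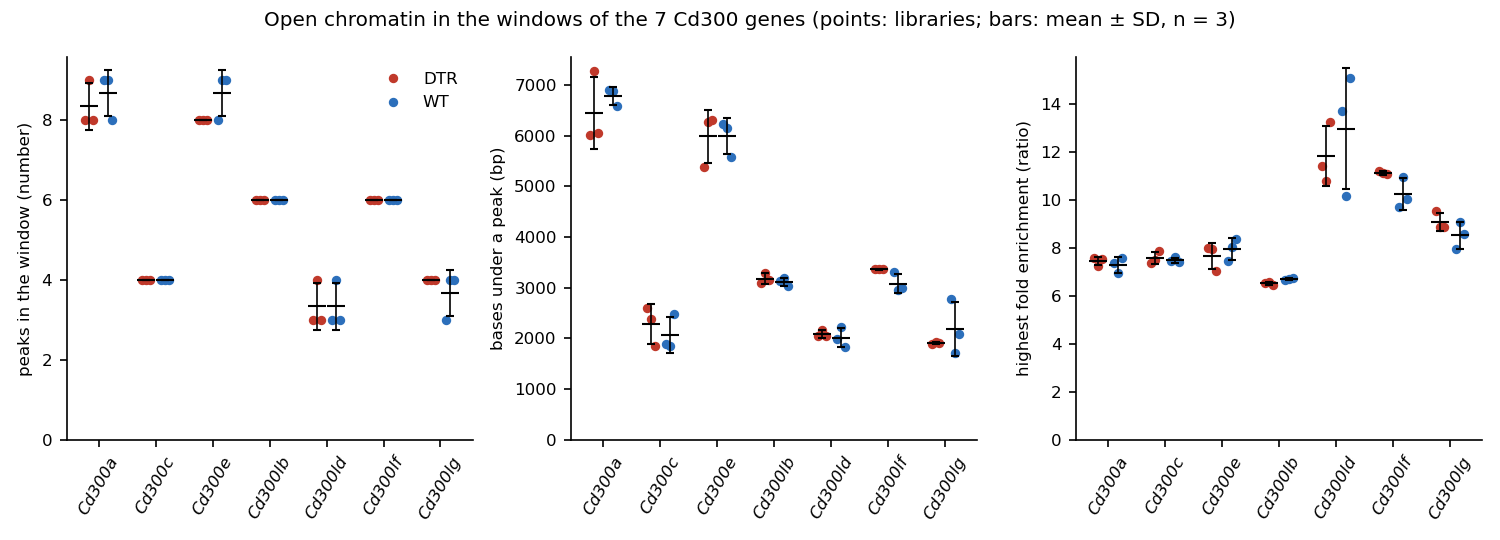
Peak number, bases under a peak (bp) and highest fold enrichment (ratio) in the window of each member; each point is a library, DTR in red left of WT in blue, and bars give the mean and SD of 3 libraries. Cd300a and Cd300e have the most peaks and covered bases, and Cd300ld and Cd300lf the highest folds.

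The region with the highest mean fold of the family lay just past the end of Cd300ld, 7849 bp downstream of its start (114981789 to 114982285). Its folds were 11.4, 10.8 and 13.2 in DTR and 13.7, 10.2 and 15.1 in WT libraries. They exceeded 93.5% to 99.8% of the peaks in their own lists. The mean was 11.8 ± 1.26 in DTR and 13.0 ± 2.53 in WT (SD, n = 3 each; exact permutation p = 0.6), with the lowest and the highest value both in WT libraries. The difference of −1.15 was −2.56 without WT library 2 and −0.106 without WT library 3. Its peaks were 418, 444 and 336 bp wide in DTR and 301, 471 and 324 bp in WT libraries.

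Across the 7 windows, 41 merged regions were found and 38 had a peak in all 6 libraries. That is 92.7%, against 74.1% of all 92757 regions. No region was DTR-only (called in each DTR library and in none of WT; 0.82% of all regions) or WT-only (0.0992%). The other 3 regions were weak. A region in Cd300a (114891322 to 114891479) had a peak in DTR library 2 and in WT libraries 1 and 2, with folds from 2.29 to 2.88. A region upstream of Cd300ld (114996470 to 114996643) had a peak in DTR library 2 and WT library 2, and a region upstream of Cd300e (115075505 to 115075665) in WT library 2 alone. Regions at the 6 starts had a median lowest fold of 6.39, those elsewhere in gene bodies (11 in all libraries) 5.08 and those in the flanks (21 in all libraries) 4.73. The lowest fold is the smallest of the 6 libraries' values.

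Of the 38 regions in all libraries, 2 had every DTR fold above every WT fold (5.26%, against 10.4% of 68712 such regions) and 3 had every DTR fold below (7.89%, against 5.15%). The median log2 ratio of DTR over WT folds was −0.0039 at the Cd300 regions and 0.013 over all regions. The ratios ran from −0.31 to 0.31 on the log2 scale, and 19 of 38 were above 0. For peak width, 7 of 38 regions had each DTR library above each WT library (18.4%, against 13.0% of all) and 0 the reverse (1.87% of all). In 4 of these 7 regions, all at Cd300a, the mean width differed by 7 to 22.7 bp.

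**Figure D4:**
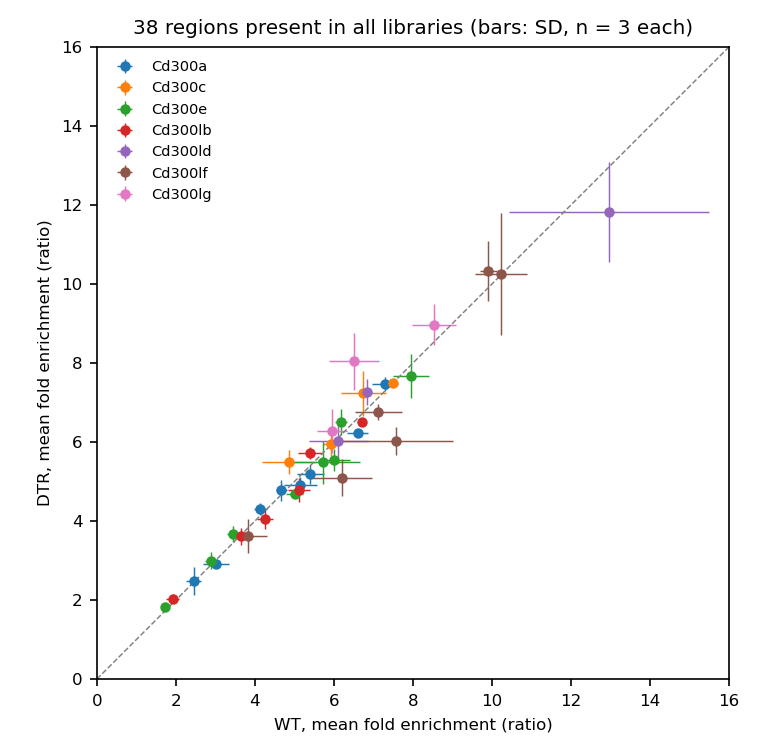
Mean fold enrichment (ratio) in DTR libraries, on the vertical axis, against WT libraries, on the horizontal axis, for the 38 regions in all libraries; bars are the SD of 3 libraries and the dashed line marks equality. Most regions lie on the line within their bars. A Cd300lg flank region lies above it, and the neighbouring upstream flank regions of Cd300lf lie below it (means 6.03 in DTR and 7.58 in WT, and 5.10 and 6.20).

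The region that stood highest above equality lay in the Cd300lg window. Cd300lg had 3 regions, all present in every library. At the flank region inside Mpp2 (102060949 to 102062073), the folds were 7.75, 8.87 and 7.52 in DTR and 6.47, 7.15 and 5.89 in WT libraries. The means were 8.05 ± 0.724 in DTR and 6.503 ± 0.630 in WT (SD, n = 3 each; difference 1.54, exact permutation p = 0.1). Its peaks were 875, 587 and 727 bp wide in DTR and 919, 628 and 979 bp in WT libraries, so the groups overlapped in width. Without any 1 of the libraries the fold difference stayed between 1.13 and 1.87. In a region that overlaps the Cd300lg body (102040148 to 102041825), the highest fold was 9.53, 8.51 and 8.87 in DTR and 7.95, 9.06 and 8.57 in WT libraries. There WT library 1 had 1 peak of 1668 bp and the other 5 libraries a pair of narrower peaks. The covered length of Cd300lg was therefore 1885, 1924 and 1906 bp in DTR and 2772, 1718 and 2091 bp in WT libraries. Of the endothelial markers with a promoter entry, Kdr had a peak there in every library and Tek and Emcn had none. The summed covered length of the 5 endothelial windows was 13617 to 14346 bp in DTR and 10929 to 13515 bp in WT libraries, and its part in the Cd300lg values was not tested.

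**Figure D5:**
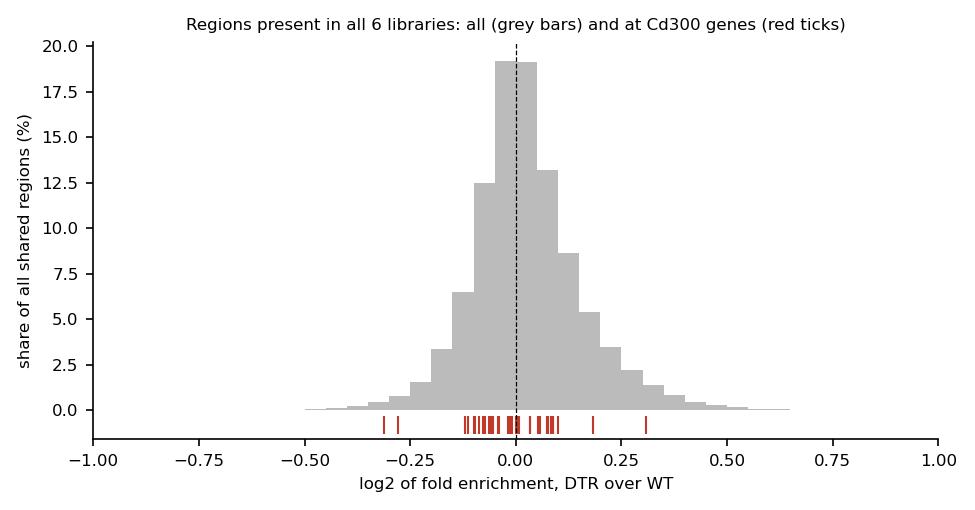
Share (%) of all 68712 regions present in 6 libraries by the log2 ratio of DTR over WT fold enrichment, in grey, with the 38 Cd300 regions as red ticks below the axis. The Cd300 regions fall within the spread of all regions, between −0.31 and 0.31.

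At other sites, 2 further regions had every DTR fold below every WT fold, besides that of Cd300lb. Downstream of Cd300a (114902982 to 114903631) the folds were 6.21, 6.28 and 6.16 in DTR and 6.38, 6.54 and 6.89 in WT libraries (exact permutation p = 0.1). At the start of Cd300ld3, inside the window of Cd300e (115048211 to 115049712), they were 4.71, 4.75 and 4.57 in DTR and 4.79, 5.22 and 5.02 in WT libraries (exact permutation p = 0.1). At the Cd300a site the peaks of all DTR libraries were also wider, with means of 650 bp in DTR and 643 bp in WT libraries.

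Fold and width of the same region moved against each other from library to library. Over the 6 libraries, the correlation of log2 width and log2 fold was negative in 31 of 38 Cd300 regions (81.6%) and in 71.6% of all regions, as a description. The flank of Cd300c (114954047 to 114955050) shows it: the peak was 903, 909 and 417 bp wide in DTR and 418, 466 and 1002 bp in WT libraries. Its folds were 5.23, 5.42 and 5.83 in DTR and 5.10, 5.40 and 4.10 in WT, lowest where the peak was widest. A fold is given per peak, so values from peaks of unequal width do not describe the same bases.

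Among 12 signalling partners of the receptors, chosen by name, 2 had every DTR library above every WT library in covered length and 0 the reverse, with a median difference of 543 bp. Over all genes, 14.8% were above, 0.653% below, and the median difference was 55.0 bp. The median covered length over all genes was 1750 bp, and each of the 12 partners covered more in every library. Differences in bp are not scaled to covered length, so the 543 bp and 55.0 bp are not on the same scale. Fcer1g, the adaptor of Cd300ld, had 3169, 3211 and 3890 bp in DTR and 2999, 2535 and 3014 bp in WT libraries (exact permutation p = 0.1). Ptpn11, a phosphatase bound by inhibitory receptors, had 4441, 4257 and 3895 bp in DTR and 3404, 3108 and 3872 bp in WT libraries (exact permutation p = 0.1). Tyrobp, the adaptor of Cd300lb, overlapped between the groups, with 4684, 4650 and 4677 bp in DTR and 4664, 4637 and 4660 bp in WT libraries. Hcst, another of the 12, had the same values in every library, so the 12 genes are not 12 separate sites. The highest fold and the peak number separated the groups at 0 of the 12 genes. Ptpn6 had 9 peaks in every library.

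Of the 5 further Cd300 genes, Cd300ld3 alone separated the groups in covered length, with 2537, 2562 and 2607 bp in DTR and 2535, 2419 and 2526 bp in WT libraries. Its window shares peaks with that of Cd300e. Cd300ld5 had no peak in its window in any library. Among 21 other immunoglobulin-like receptors of myeloid cells, 6 had every DTR library above WT in covered length and 0 below, with a median difference of 143 bp, set against 14.8%, 0.653% and 55.0 bp over all genes. These bp values are not scaled to covered length either. The differences were greatest at the Fc receptor gene Fcgr4 (938 bp), Siglece (735 bp) and Fcgr1 (483 bp). In highest fold, 1 of 20 (Siglecg) was above and 3 (Siglece, Pilrb1 and Pilra) were below, where all genes gave 7.99% and 4.75%. In peak number, 2 of 21 (Siglecg and Fcgr2b) were above and 0 below, where all genes gave 2.3% and 0.265%. Whether these counts differ from those of the Cd300 genes was not tested.

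Outside chromosome 11, the covered lengths most like that of the family over the 6 libraries were those of Slc27a4 (Pearson r = 0.990), Ighmbp2 and Mrpl21 (both 0.990, with identical values), out of 14876 genes. With 6 libraries and this many genes, such values describe the pattern only.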

How the data were processed

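Each of 6 deposited lists gives the broad peaks of 1 library. The series' title speaks of histone modifications, whereas its design and sample labels name ATAC-seq. The submitters' processing notes name MACS2, Bowtie2 (2.4.4), Bowtie and fastp. For their settings, any shift for the transposase offset, reads with several matches and the genome build: not given in the sources used here. Column 7 of the deposited lists is a fold enrichment (a ratio) per peak. The authors' score equals 10 times the −log10 q, truncated, in 99.9% of the peaks of each list, and the authors' −log10 p and −log10 q were used to filter and rank. Folds are over a background of each library's own and were compared as the authors' values.

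Gene bodies (RefSeq, GRCm38.p6) were extended by 10 kb. Peak number, covered bases and highest fold per library were computed for 21887 protein-coding genes (Python 3.11.15, pandas 2.3.3) and tested by an exact two-sided permutation test, 20 arrangements, with Benjamini-Hochberg adjustment over all genes. limma 3.58.1 on log2 values, without a pseudocount, was applied to 16247 genes with a peak in every library. Overlapping peaks of all libraries were merged into regions. The code was tested on simulated data. The named genes are all 7 members, genes in their windows, up to 3 genes per list and direction whose groups do not overlap (by size of the difference), and the 3 most alike genes. Marker genes come from the cell type lists. Tyrobp, Hcst, Ptpn6 and the start of Cd300c2 were added after their values were seen. Members and lists were chosen with earlier results of these data known. Alternatives were a −log10 q of at least 5, lists of equal length, other windows, joined peaks, other scales and assignments, libraries left out and a replicate block. Analyses needing the genome sequence beyond the promoter table were left out.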

Additional observations from a re-analysis of the deposited data

How the results depend on the processing

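The lists give no depth, so sites without a peak may be too thinly sequenced to call. With 3 libraries per group, the exact permutation test allows no p under 0.1. For that test the side of a threshold was therefore fixed by the design and says nothing of stability. The limma fits have no such floor. Of 559 alternative values over 19 settings, 33 changed sign. That share is no measure of stability. Joined peaks, peaks lying mostly inside the window, nearest-member assignment and the replicate block left the member and family differences they covered unchanged. The 559 also hold region counts, which have no sign. Settings for regions were added after seeing the data. The 33 are DTR minus WT differences that passed no test, and their cause was not tested beyond what the smaller or larger window shows. With a −log10 q of at least 5, the difference was 0.667 in family peak number, −0.0900 in family median fold and 0.333 in Cd300e peak number. With lists of equal length (77867 peaks each), family covered length differed by −49.7 bp. Without extension, covered length differed by −39.7 (Cd300e), −19.3 (Cd300lb), −15.0 (Cd300ld) and 25.7 bp (Cd300lg), highest fold by 0.187 (Cd300e), 0.336 (Cd300lb) and 0.429 (Cd300ld), and 17 regions had a peak in all libraries, as the windows are smaller. With 5 kb, Cd300lb differed by −7.33 bp and 0.336 in fold and Cd300e by 0.329 in fold. With 25 kb, family peak number differed by 0.333 and the Cd300c highest fold by −1.15. With limma, Cd300e covered length differed by −0.0016 on the log2 scale. Leaving out each library gave −1.33 to 0.167 peaks, −716 to 483 bp and −0.0734 to 0.158 in median fold for the family. It gave −202 to 304 bp for Cd300e, −4.83 to 97.7 bp for Cd300lb, −15.7 to 176 bp for Cd300ld and −527 to 0.5 bp for Cd300lg, and in highest fold −0.00486 to 0.314 for Cd300a, −0.0470 to 0.194 for Cd300c and −0.530 to 0.0359 for Cd300e. At Cd300ld the fold range was −2.56 to −0.106. At Cd300lf these ranges were 224 to 398 bp and 0.618 to 1.24 in fold, while windows without extension or with 5 kb gave 27.7 and 146 bp, 0.421 in fold, and overlapping groups. None of the 12 region differences changed sign this way. They were chosen because their groups did not overlap, so leaving out a library could not change their sign. The Cd300e start overlapped between groups after division by the list median. Libraries with the same number did not deviate together (correlations −0.0320, 0.0518 and −0.0328). With a replicate block the differences are the same, with exact sign-flip p of at least 0.25, and Cd300lf covered length had a limma adjusted p of 0.430. That block fit called 0 genes for covered length (2057 with an unadjusted p below 0.05), against 3 without it.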
